A study of Mus musculus with 2 samples.

Results

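The cells described here are 78 T cells that carried a Trac transcript and were left in a preparation of splenic natural killer (NK) cells after negative selection. They were 78 of 11692 analysed cells, or 0.667% (exact binomial interval 0.528 to 0.832%). Transcripts were counted as unique molecular identifiers (UMIs), short random tags that mark each captured molecule. A cell was taken as a T cell when it held at least 1 UMI of Trac and a UMI of at least 2 of Cd3d, Cd3e and Cd3g. It also had to lack UMIs of Ncr1 and Klre1, which encode NK cell receptors, and of Cd79a, which encodes a part of the B cell receptor. These 7 genes chose the cells, so their levels are given as a description and were not tested.

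The spleens came from wild-type mice, with no treatment named and no age given in the labels, and NK cells were purified with a kit whose antibodies hold back other blood lineages, T cells included. Cells of several mice were marked with lipid tags and pooled into 1 droplet library (10x Genomics 3′ chemistry), and 1 of the 2 samples in the labels was analysed here. The series concerns Kir6.1, the pore subunit of an ATP-sensitive potassium channel, but every cell here was wild type. The T cells were set against 629 Cd3-positive NK cells (Ncr1 and Klre1 with Cd3d or Cd3g, no Trac), 7461 NK cells (Ncr1 and Klre1, no Trac or Cd3 gene) and 498 B cells (Cd79a with a further B cell gene, Cd79b or Ms4a1 among them). All of these cells came from the same library, and the B cell set also holds plasma cells. The labels do not say which tag marks which mouse or whether a tag is 1 mouse. The 3 tags served as replicates, so the p-values weigh a difference against the spread between tags alone, and that spread may be technical.

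An alpha-beta T cell recognises peptides through a receptor of an alpha and a beta chain, whose constant parts are encoded by Trac and by Trbc1 or Trbc2. The chains themselves have no signalling tail and depend on the CD3 proteins and the zeta chain (Cd247), which recruit kinases such as Lck and Zap70. In the spleen, naive CD4 and CD8 T cells recirculate through receptors such as CCR7 and S1PR1, while innate-like T cells such as invariant NKT cells stay poised to release cytokines and share receptors with NK cells.

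Tag 1 held 22 of the T cells, tag 2 held 16 and tag 3 held 40. They were 0.612%, 0.380% and 1.03% of the analysed cells of those tags, or 0.674% ± 0.329 (SD, n = 3). T cells had a median of 5782 UMIs, with a range of 2733 to 15994, against 6650 in Cd3-positive NK cells, 4028 in NK cells and 3678 in B cells. The summed T cell libraries held 133769, 83789 and 257191 UMIs in tags 1, 2 and 3. Levels are given as CPM, a gene's UMIs relative to all UMIs of the summed cells, where 3 UMIs over all T cells, taken as the floor, correspond to 6.32 CPM. Intervals given with CPM are exact Poisson and those with shares exact binomial, at 95%, and cover counting error only.

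The receptor genes that chose the cells were mostly seen at a few UMIs per cell. Trac had between 1 and 9 UMIs in a cell with a median of 2, Cd3d a median of 5, Cd3g of 4 and Cd3e of 3. In 71 cells all 3 Cd3 genes had a UMI, and in 7 cells exactly 2 did. Of the 78 cells, 19 held exactly 1 Trac UMI and 59 held more. Just outside the rule, 0 cells had Trac with a single Cd3 gene, 6 had Trac with none, and 21 had at least 2 Cd3 genes but no Trac. These 21 cells carried Trbc2 at 975 CPM (803 to 1173), against 1251 CPM (1055 to 1474) in the 19 T cells with 1 Trac UMI. Cd3d, which helped to choose both sets, stood at 845 CPM (685 to 1030) in the 21 cells and 822 CPM (665 to 1006) in the 19. Tcrg-C4, a gamma chain constant gene, stood at 200.3 CPM (127 to 301) in those 21 cells, in 4 of them, and at 8.75 CPM (0.222 to 48.8) in the 19.

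A further 56 cells met the T cell part of the rule but held a UMI of Ncr1 or Klre1, and in 21 of them that was a single UMI. They were 40.6% (32.3 to 49.3%) of all cells with Trac and at least 2 Cd3 genes, whose median depth was 6372.5 UMIs. Such UMIs also occurred in B cells, which do not express these genes. Among 723 B cells picked without regard to NK genes, with a median depth of 4081 UMIs, 31.1% (27.8 to 34.6%) held one. These shares come from unlike depths, and the source of these UMIs was not tested. The 56 cells had Gzma, the granzyme A gene, at 1397 CPM (1291 to 1509). Klrb1c, an NK receptor gene, stood at 284 CPM (237 to 337) and was seen in 32 of them. The 56 cells were left out here, so T cells with more NK receptor RNA may be missing from the set. With the 56 cells and 4 cells that held Cd79a, the T cell share of a tag was 1.19%.

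The beta chain was seen almost as widely as the genes of the rule. Trbc2 had a UMI in 77 of the 78 cells and Trbc1 in 44. Both were seen in 43 cells, Trbc2 alone in 34 and Trbc1 alone in 1. The genes are close copies, so reads may be split between them. Trbc2 stood at 1316, 1456 and 1329.8 CPM in the T cells of tags 1, 2 and 3, against 293, 253 and 309 CPM in Cd3-positive NK cells, 217, 199 and 241 CPM in NK cells and 4.49, 15.4 and 5.60 CPM in B cells. The T cells of every tag were above every tag of the other sets. The log2 fold change was 2.46 (SE 0.17, edgeR adjusted p = 4.6e-47) against Cd3-positive NK cells, 2.78 (SE 0.16, edgeR adjusted p = 1.2e-64) against NK cells and 7.52 (SE 0.25, edgeR adjusted p = 1.9e-26) against B cells. Trbc1 was also higher, at 677 ± 188 CPM in T cells, 447 ± 18.1 CPM in Cd3-positive NK cells and 338 ± 18.0 CPM in NK cells (SD, n = 3). Its log2 fold change was 1.17 against NK cells and 0.82 against Cd3-positive NK cells (edgeR adjusted p = 8.3e-11 and 3.0e-05), and against Cd3-positive NK cells it was 0.49 without tag 3 and did not pass. Cd247, the zeta chain gene that NK cells use as well, stood at 389 ± 57.1 CPM in T cells, 209.6 ± 18.3 CPM in Cd3-positive NK cells and 238 ± 17.9 CPM in NK cells, and was higher in T cells in both comparisons (edgeR adjusted p = 1.7e-07 and 4.5e-05).

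Variable and joining segments of the receptor were counted as genes of their own, and several different segments were seen among the cells. Of 35 beta variable segments in the annotation 13 were seen, with 32 UMIs in 23 T cells, and of 60 alpha joining segments 8 were seen, with 20 UMIs in 17 cells. No beta variable segment was seen in more than 4 cells, and Trbv19 was seen in 4. Of 128 alpha variable segments 8 were seen, with 11 UMIs in 8 cells. The most often seen joining segment was Traj18, with 9 UMIs in 8 cells, followed by Traj27 with 4 UMIs in 4 cells. Traj18 is the joining segment of the invariant receptor of NKT cells, which pairs it with Trav11. Here Trav11 and Trav11d had 0 UMIs in T cells, and with 3′ reads such segments are seen in few cells. The Traj18 cells were spread over the coreceptor classes, with 3 Cd8, 3 Cd4 and 2 cells with neither, and over the tags with 1, 3 and 4 cells. NK cells had 3 Traj18 and 8 Traj27 UMIs among 35932956 UMIs in all, and B cells 0 and 1 among 2485308. The T cells had 9 and 4 among 474749. UMIs of these joining segments were thus not limited to T cells, but relative to all UMIs they were more frequent there. The germline segments, from GENCODE M21 transcripts on GRCm38 (the same build as mm10), are shown because they are the joining segments seen most, and the capitals mark the codons of the phenylalanine-glycine motif of joining segments:
Traj18: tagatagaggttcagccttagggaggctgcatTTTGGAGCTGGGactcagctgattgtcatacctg
Traj27: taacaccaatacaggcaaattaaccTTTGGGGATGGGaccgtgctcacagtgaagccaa
Traj18 lies on chromosome 14 from 54200777 to 54200842 and Traj27 from 54192303 to 54192361, both on the plus strand upstream of Trac (54220521 to 54224206). A search for TTTGG, any 4 bases, then GG and a further base, on both strands, found it in 36 of the 60 annotated alpha joining segments (60%) and in 0 on the opposite strand, with no other motif searched.

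Against NK cells, the T cells were set apart by genes of the T lineage and of naive T cells on the higher side, and by NK receptors and granule genes on the lower side. Of 11357 genes tested with edgeR's quasi-likelihood test, 578 (5.09%) were higher and 944 (8.31%) lower in T cells at an adjusted p under 0.05, together 13.4%. Both sets were picked by their genes, so the calls describe that choice as well, and the genes of the gates were left out. Scaled to total UMIs alone, which shifted the median of all genes by -0.16 on the log2 scale, the counts were 490 higher and 1286 lower, and by DESeq2 476 and 411. Without tag 3 they were 274 and 518, and with all cells thinned to 3900 UMIs 377 and 667.

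Themis, which sets the response of developing T cells to receptor signals, led the higher genes in order of ratio. It stood at 463, 525 and 587 CPM in the T cells of tags 1, 2 and 3, against 21.1, 11.7 and 9.41 CPM in Cd3-positive NK cells, 0.0903, 0.0701 and 0.189 CPM in NK cells and 0, 0 and 0 CPM in B cells. It was seen in 64 of 78 T cells, but in 4 of 7461 NK cells and 0 B cells (edgeR adjusted p = 5.4e-270 against NK cells). Bcl11b, the transcription factor gene that commits progenitors to the T lineage, varied little between tags, at 366, 358 and 358 CPM in T cells, against 10.5, 10.2 and 16.4 CPM in NK cells. Its T and NK values did not overlap, a 32.0-fold difference (edgeR adjusted p = 1.2e-92). Cd5 and Cd6, surface receptors that dampen receptor signalling, stood at 139.9 ± 29.3 and 135 ± 54.4 CPM in T cells, against 0.201 ± 0.0736 and 0.17 ± 0.0259 CPM in NK cells (SD, n = 3).

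The other genes on the higher side by the same rule included signalling and interferon-response genes. Inpp4b, a phosphoinositide phosphatase gene, stood at 1083 ± 61.1 CPM in T cells and 41.9 ± 16.2 CPM in NK cells, a 29.3-fold difference (edgeR adjusted p = 1.2e-170). Camk4, a calcium-dependent kinase gene, was 33.2-fold higher in T cells and Ifi27l2a, an interferon-induced gene, 36.0-fold. St6gal1, a sialyltransferase gene, stood at 220.0 ± 69.2 CPM in T cells and 2.73 ± 0.615 CPM in NK cells. Slfn1, a gene of the Schlafen family, stood at 173 ± 54.0 CPM in T cells and 0.702 ± 0.311 CPM in NK cells, and Fam169b at 257 ± 139.9 and 0.641 ± 0.0165 CPM (SD, n = 3 each). Each of these 6 genes was higher in 3 of 3 tags, which the rule for naming them required.

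**Figure D1:**
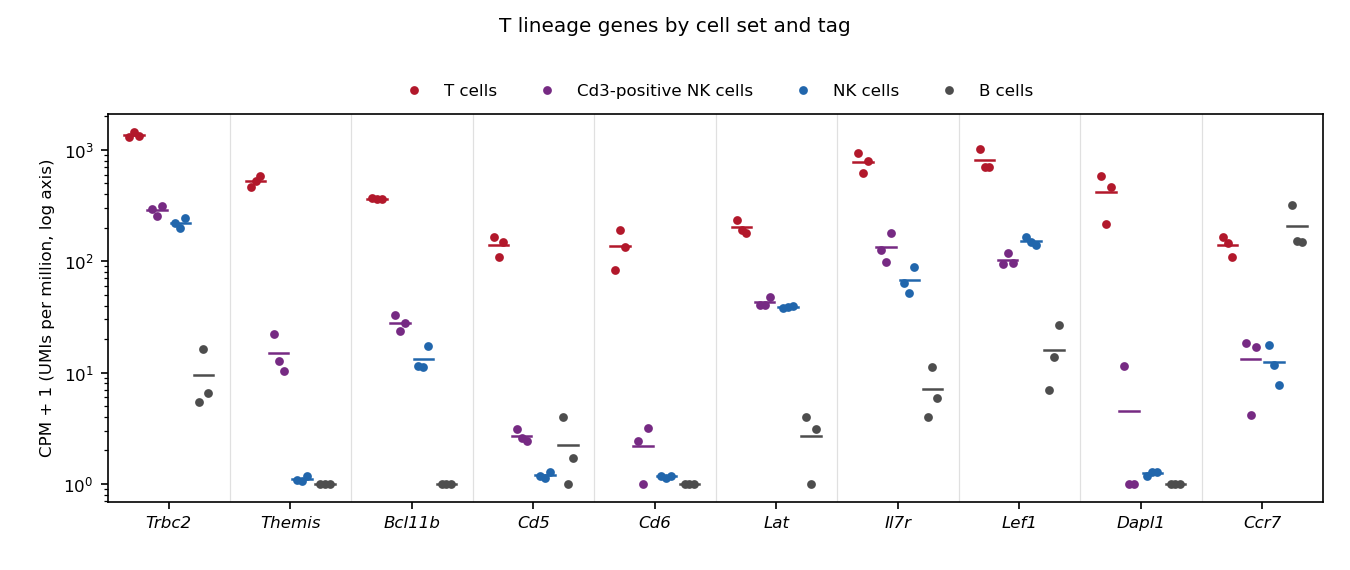
CPM plus 1 (log axis) of 10 T lineage genes in T cells, Cd3-positive NK cells, NK cells and B cells. Each point is the sum of a set's cells in 1 tag and each bar the mean of the 3 tags; Bcl11b lies near 361 in T cells and at 0 CPM in B cells, and for Ccr7 the B cells reach the level of the T cells.

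Genes of proximal receptor signalling moved in both directions. Of 21 tested, 10 were higher and 2 lower in T cells than in NK cells, with a median log2 fold change of 0.49 beside -0.22 over all genes tested. Lat, the adaptor that Zap70 phosphorylates, stood at 232, 191 and 179 CPM in T cells and 36.8, 37.6 and 38.3 CPM in NK cells, with a log2 fold change of 2.56 (SE 0.25, edgeR adjusted p = 4.4e-23). Trat1, which encodes a receptor-associated transmembrane adaptor, had one of 3.91 (SE 0.57, edgeR adjusted p = 1.9e-10). The lower genes were the kinase genes Fyn (-1.12) and Txk (-0.92), both of which NK cells also use. The other 9 genes, Lck and Zap70 among them, did not pass.

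Costimulatory and other surface genes were mostly higher, with 9 higher and 2 lower of 15 tested against NK cells. Cd28, the main costimulatory receptor gene, stood at 379.9 ± 66.3 CPM in T cells and 111 ± 8.21 CPM in NK cells (SD, n = 3), a log2 fold change of 1.88 (SE 0.18, edgeR adjusted p = 8.8e-23). Icos had one of 2.85, Thy1 one of 2.27 and Ctla4, which encodes an inhibitory receptor, one of 5.90 (edgeR adjusted p = 2.5e-20, 2.4e-20 and 2.8e-28). Tnfrsf9 and Tnfrsf18, members of the tumour necrosis factor receptor family, were the 2 lower genes. Tnfrsf9 did not pass without tag 1 (-1.34) or by DESeq2 (-1.61), and Tnfrsf18 did not pass without tag 3 (-0.49), by DESeq2 (-0.81), after thinning (-0.54) or with at least 2 Trac UMIs (-0.98). All 3 coreceptor genes were higher, and Cd8b1, the CD8 beta chain gene, stood at 478, 239 and 362 CPM in T cells and 0.361, 0.14 and 0.283 CPM in NK cells.

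Naive T cell genes were higher almost throughout: 11 of 13 passed as higher and 1 as lower, with a median log2 fold change of 2.57. Il7r, the receptor of the survival cytokine IL-7, stood at 927, 621 and 789 CPM in T cells, against 62.3, 50.8 and 88.2 CPM in NK cells. All T cell values lay above all NK cell values, with a log2 fold change of 3.69 (SE 0.17, edgeR adjusted p = 3.0e-100). Lef1, a transcription factor of naive T cells, stood at 1017, 704 and 699.9 CPM in T cells and 163, 147 and 139 CPM in NK cells (2.57 on the log2 scale), and its relative Tcf7 had a log2 fold change of 1.75. Ccr7 stood at 139 ± 28.1 CPM in T cells and 11.3 ± 5.05 CPM in NK cells, and S1pr1 at 228 ± 76.2 and 46.1 ± 2.17 CPM (SD, n = 3). Dapl1, a gene of naive CD8 T cells in mice, stood at 576, 215 and 463 CPM in T cells and 0.181, 0.28 and 0.283 CPM in NK cells, and was seen in 35 of 78 T cells.

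Klf2, which drives S1pr1, stood at 854 ± 301 CPM in T cells and 1217 ± 218 CPM in NK cells and did not pass (log2 fold change -0.41, SE 0.16, edgeR adjusted p = 0.079). It passed as lower in 4 of the alternatives: scaled to total UMIs (-0.56), with at least 2 Trac UMIs (-0.52), after thinning (-0.51) and without the deepest cells (-0.44).

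T lineage transcription factors did not move as a block, with 9 higher and 7 lower of 21 tested and a median log2 fold change of -0.04. Foxp1 was higher beside Bcl11b, Tcf7, Lef1 and Zbtb16, and so were Foxo1, Bach2, Satb1 and Id3, which did not pass without tag 3 (log2 fold changes of 0.76, 0.69, 0.66 and 2.28). After thinning Foxp1 (0.47), Foxo1 (0.56) and Bach2 (0.28) did not pass. The lower ones were factors of effector and NK cells, Tbx21 (35.4 ± 32.8 CPM in T cells and 221 ± 14.7 CPM in NK cells), Eomes (15.4 ± 15.6 and 315 ± 32.2 CPM), Id2 (347 ± 193 and 931 ± 52.8 CPM) and Zeb2 (30.1 ± 36.3 and 852 ± 20.8 CPM), with Runx1, Ikzf3 and Runx3 (SD, n = 3). Runx3 did not pass without tag 1 (-0.48), by DESeq2 (-0.61), after thinning (-0.64) or with at least 2 Trac UMIs (-0.57). Zbtb16, which encodes PLZF, the factor of innate-like T cells, had 0, 95.5 and 89.4 CPM in the T cells of tags 1, 2 and 3, against 25.5, 25.0 and 27.1 CPM in NK cells. Tag 1 was thus below and the other tags above the NK cells, and the log2 fold change of 1.43 (SE 0.37, edgeR adjusted p = 0.0016) was lost without tag 3 (0.69), with at least 2 Trac UMIs required (0.96) and by DESeq2 (1.17).

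**Figure D2:**
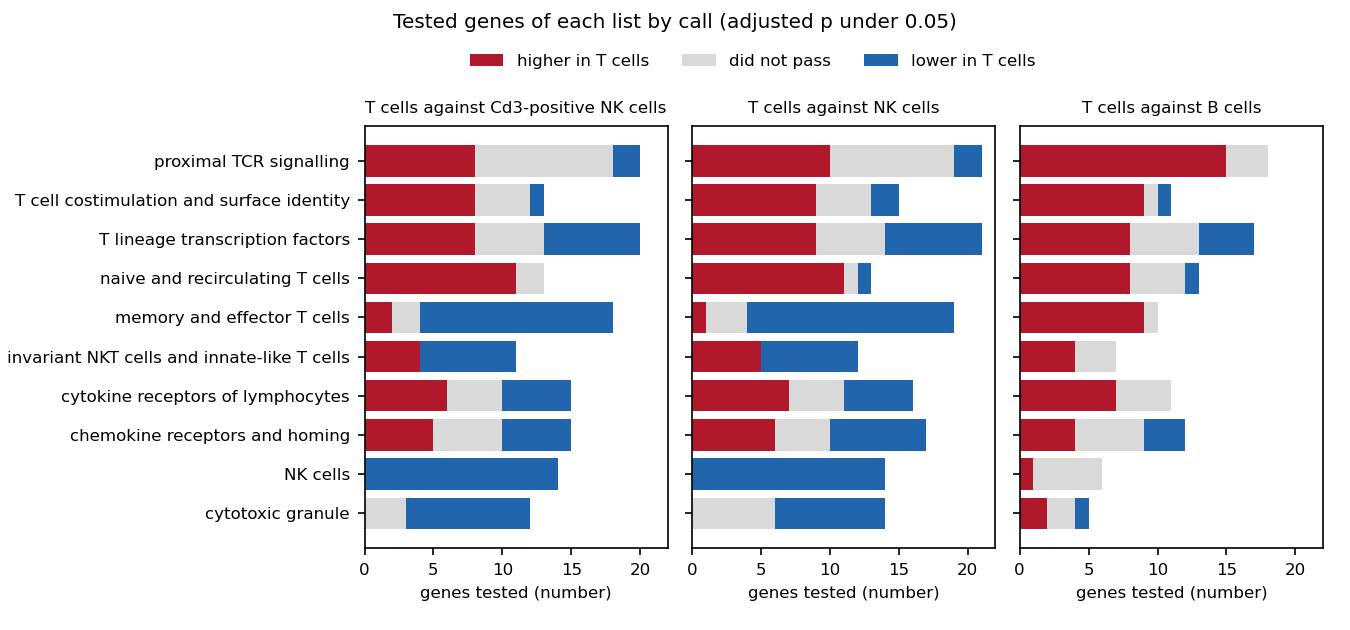
Number of tested genes of 10 gene lists that were higher in T cells (red), did not pass (grey) or were lower in T cells (blue), against Cd3-positive NK cells, NK cells and B cells. The naive list has 11 higher genes against both NK sets, and the memory and effector list has 15 lower genes against NK cells and 9 higher genes against B cells. Genes removed by the count filter are not shown.

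Genes shared by memory T cells and NK cells were mostly lower, with 15 of 19 lower and 1 higher. One of the 15, Ly6c2, lost its call in 6 of 10 alternatives, with a log2 fold change of -0.19 after thinning, and was higher in T cells than in Cd3-positive NK cells (log2 fold change 0.81, SE 0.22, edgeR adjusted p = 0.002). The higher gene was Cxcr6, a chemokine receptor gene of tissue and innate-like lymphocytes, at 37.4, 203 and 136 CPM in T cells and 5.60, 7.29 and 5.47 CPM in NK cells (log2 fold change 4.40, SE 0.45, edgeR adjusted p = 9.7e-21). Il2rb, the receptor chain for IL-2 and IL-15, stood at 141 ± 24.1 CPM in T cells and 731 ± 30.6 CPM in NK cells (SD, n = 3). Among 16 cytokine receptor genes 7 were higher and 5 lower. The IL-6 receptor genes Il6ra and Il6st were higher by 5.52 and 3.64 on the log2 scale, and the IL-18 receptor gene Il18r1 had a log2 fold change of -1.58 (edgeR adjusted p = 4.0e-25, 2.2e-15 and 6.3e-13). Chemokine receptor and homing genes split into 6 higher and 7 lower of 17, and Ccr9, a gut-homing receptor gene, was among the higher ones at 77.9 ± 27.8 CPM in T cells and 3.31 ± 0.424 CPM in NK cells. Of 10 cell cycle genes 5 were lower and 0 higher in T cells, and the summed level of the list was 157, 143 and 167 CPM in T cells, against 489, 482 and 514 CPM in NK cells. Of these 5, Mki67 did not pass by DESeq2 (-2.98), after thinning (-2.71) or without the deepest cells (-1.51), and Top2a did not pass in 5 of the alternatives, with -0.80 without the deepest cells. Of 12 immediate early genes, which respond to tissue handling, 2 were higher and 1 lower.

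Markers of regulatory T cells were thin. Foxp3, the defining factor, had 4 UMIs in 2 T cells, or 8.43 CPM (2.30 to 21.6), and was not tested. Of 9 tested genes of that list 5 were higher and 2 lower than in NK cells, among them Ikzf2, which stood at 67.3, 418 and 171 CPM in T cells and 50.2, 51.8 and 59.9 CPM in NK cells (log2 fold change 1.95, SE 0.24, edgeR adjusted p = 1.1e-14). A single cell held 28 of the 35 Ikzf2 UMIs of tag 2 and another 15 of the 44 of tag 3. Without the cell with most Ikzf2 UMIs in each tag, the T cell levels were 39.5, 89.4 and 120.2 CPM, so tag 1 was then below the NK cells. The fold change was 1.41 without tag 2 and still passed. Izumo1r, the folate receptor 4 gene, had 29 UMIs in T cells and 0 in NK cells, making it at least 732-fold higher against a floor of 3 UMIs over all NK cells. Of 4 tested genes of gamma-delta T cells 2 were lower and 0 higher than in NK cells, and the summed level of the list was 22.4, 131 and 167 CPM in T cells, against 158, 164 and 166 CPM in NK cells. Trdc had 4 UMIs in 3 T cells, or 8.43 CPM (2.30 to 21.6), against 58.8 CPM (56.4 to 61.4) in NK cells, with a log2 fold change of -2.65 (SE 0.57, edgeR adjusted p = 7.4e-05). Follicular helper genes gave 2 higher and 2 lower of 7 tested.

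NK cell genes fell as a whole list, with 14 of 14 tested genes lower and 0 higher than in NK cells; Ncr1 and Klre1, at 0 by the gate, were not tested. Gzma stood at 164, 143 and 163 CPM in T cells, against 8749, 9417 and 7957 CPM in NK cells, a 48.0-fold lower level (edgeR adjusted p = 4.4e-117). Tyrobp and Fcer1g, signalling adaptors of activating receptors, stood at 73.6 ± 58.0 and 74.0 ± 40.2 CPM in T cells, against 2759 ± 67.0 and 2251 ± 73.9 CPM in NK cells (SD, n = 3). The receptor genes Klra4, Klra7, Klra8 and Klra9, Klri2 and Klrb1b were among the lowest by ratio, with 7, 5, 9, 2, 4 and 1 UMIs in all T cells. Klra genes are close copies of each other, so their single values are uncertain. Ccl4, a chemokine gene, had 6 UMIs in T cells and stood at 702 ± 132 CPM in NK cells. Anxa2, which encodes a membrane-binding annexin, stood at 15.4 ± 15.6 CPM in T cells and 580.3 ± 31.8 CPM in NK cells. Of 14 granule genes 8 were lower and 0 higher. Prf1, the perforin gene, stood at 44.4 ± 34.0 CPM in T cells and 791 ± 60.3 CPM in NK cells (SD, n = 3), and Gzmk had 0 UMIs in T cells.

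The level of NK gene UMIs in T cells was set beside that in B cells, another lymphocyte type. Gzma had a UMI in 60.3% of T cells and 56.8% of B cells, or 42.9% and 40.7% with each cell thinned to 3900 UMIs. Its level in T cells, 160.1 CPM (126 to 200.4), lay near the 189 CPM (172 to 207) of B cells, with a log2 fold change of -0.28 (SE 0.22, edgeR adjusted p = 0.42). The summed level of the 16 NK genes was 643, 800 and 859 CPM in the T cells of tags 1, 2 and 3, against 556, 822 and 593 CPM in B cells and 24763, 25952 and 23912 CPM in NK cells. Tyrobp stood at 73.6 ± 58.0 CPM in T cells and 134 ± 25.0 CPM in B cells (SD, n = 3; log2 fold change -0.75, SE 0.32, edgeR adjusted p = 0.087), and Fcer1g at 74.0 ± 40.2 and 80.1 ± 19.7 CPM. Both sets were chosen without UMIs of Ncr1 and Klre1, so their rules set part of these levels. The mean levels of Gzma, Tyrobp and Fcer1g in T cells lay under those in B cells, and the source of these UMIs in T cells and in B cells was not tested.

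Some cytotoxic genes were higher in T cells than in B cells. Nkg7, a granule membrane protein gene, had 493, 752 and 529 CPM in T cells, against 70.4, 69.4 and 74.2 CPM in B cells and 2828, 2816 and 2499.8 CPM in NK cells. Each T cell tag was above the B cells and below the NK cells, with log2 fold changes of 2.94 (SE 0.19, edgeR adjusted p = 2.3e-16) and -2.08 (SE 0.18, edgeR adjusted p = 9.1e-29). Klrd1, the CD94 gene, stood at 182 ± 66.2 CPM in T cells and 40.0 ± 18.9 CPM in B cells (log2 fold change 2.41, SE 0.30, edgeR adjusted p = 9.4e-09), and Ctsw, a cathepsin gene of cytotoxic cells, at 115 ± 37.2 and 25.6 ± 16.0 CPM (log2 fold change 2.41, SE 0.35, edgeR adjusted p = 4.1e-07). Klrb1c, which encodes NK1.1, was seen in 26.9% of T cells and 8.84% of B cells, or 21.4% and 5.75% after thinning, and was too low in B cells to be tested. Ccl5, a chemokine gene of memory T and NK cells, had 568, 1945 and 1054 CPM in T cells and 723, 642 and 369 CPM in B cells. The values overlapped, and the log2 fold change of 0.97 (SE 0.19, edgeR adjusted p = 8.8e-05) did not pass by DESeq2 (0.92) or after thinning (0.69). A single T cell held 81 of the 163 Ccl5 UMIs of tag 2, and without it the tag 2 level was 1021 CPM (812 to 1267). Another T cell held 46 Ccl5 UMIs in tag 3.

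**Figure D3:**
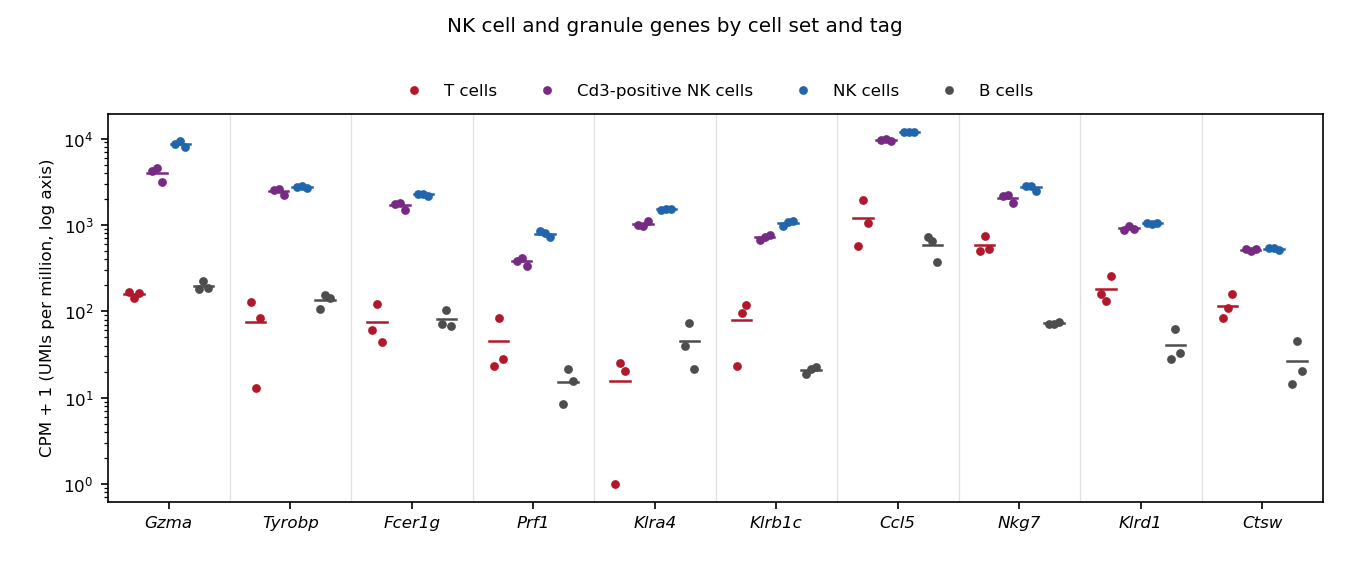
CPM plus 1 (log axis) of 10 NK cell and granule genes in T cells, Cd3-positive NK cells, NK cells and B cells. Each point is the sum of a set's cells in 1 tag and each bar the mean of the 3 tags. For Gzma, Tyrobp and Fcer1g the T and B cells lie at like levels, and for Nkg7, Klrd1 and Ctsw the T cells lie between the B cells and the NK cells.

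Against B cells, 538 genes (11.8%) were higher in T cells and 633 (13.9%) lower, together 25.7% of 4553 tested with edgeR. By DESeq2 the counts were 238 and 338, after thinning 276 and 368, and without tag 3 344 and 432. Receptor signalling genes were higher in 15 of 18 and lower in 0 (median log2 fold change of 4.19, beside -0.03 over all genes tested), and costimulatory genes higher in 9 of 11. Naive genes were higher in 8 of 13 and lower in 1, the transcription factor gene Bach2, which B cells also use, a call lost without tag 3 (-0.61) and by DESeq2 (-0.69). Of the memory and effector genes only 10 were tested, and 9 of these were higher. Ccl5, among the 9, did not pass by DESeq2 or after thinning. A gene low in B cells was tested only where its T cell counts passed the count filter. For such genes the filter favoured a higher call in advance, so these list counts are a description.

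Il7r stood at 779 ± 153 CPM in T cells and 6.06 ± 3.78 CPM in B cells, and Lef1 at 807 ± 182 and 14.9 ± 10.1 CPM (SD, n = 3). Skap1, an adaptor gene, stood at 1258 ± 252 CPM in T cells and 31.5 ± 16.9 CPM in B cells, and Ms4a4b, a membrane protein gene of T cells, at 1106 ± 115 and 38.2 ± 18.5 CPM (SD, n = 3). Themis, Dapl1, Bcl11b and Cd6 had 0 UMIs in B cells, which makes them at least 448-fold, 373-fold, 298-fold and 106-fold higher against 3 UMIs over all B cells. On the lower side were immunoglobulin genes (Igkc, Iglc2, Iglc3, Jchain), antigen presentation genes (Cd74, H2-Aa) and the B lineage genes Ebf1 and Ly6d. Ebf1 had 0 UMIs in T cells and stood at 2666 ± 325 CPM in B cells, at least 422-fold lower. Igkc stood at 61.9 ± 3.67 CPM in T cells and 35033 ± 6842 CPM in B cells, and Cd74 at 26.8 ± 13.3 and 10891 ± 450.1 CPM (SD, n = 3). Iglc3 was uneven within the B cells, at 11649, 1035 and 1039.7 CPM in tags 1, 2 and 3, and had 2 UMIs in T cells.

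Markers of other cell types were at 0 in the T cells in part. Ms4a1, Ebf1, Pax5, Cd22, Fcer2a and Ighd had 0 UMIs, and the summed level of 12 B cell genes was 172, 191 and 218 CPM, almost all Ighm and Igkc. Ighm had a UMI in 51.3% of T cells and 28.8% of NK cells, which do not make it, or 34.3% and 26.6% after thinning. Of the neutrophil and basophil genes 7 of 7 had 0 UMIs, of the monocyte and macrophage genes 6 of 9, of the progenitor genes 3 of 4, of the conventional dendritic cell genes 3 of 10, of the erythroid genes 2 of 7 and of the platelet genes 1 of 4. The summed level of the monocyte and macrophage list was 52.3, 47.7 and 73.9 CPM in T cells, against 116, 142 and 128 CPM in NK cells, and most of it was Ms4a6c, with 27 UMIs in T cells. The dendritic cell list summed to 67.3, 35.8 and 93.3 CPM in T cells, against 839, 679.8 and 1033 CPM in NK cells. The erythroid list summed to 44.9, 47.7 and 54.4 CPM in T cells, against 286, 259.9 and 364 CPM in NK cells. A single T cell lay above 12469.4 UMIs, the bound taken for possible doublets.

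Cd3-positive NK cells are the most alike set by the CD3 genes, and they differed from the T cells within the complex itself. Cd3g had a UMI in 100% of T cells and 48.8% of Cd3-positive NK cells, which the gates set in part. Cd3e, which their gate does not use, had a UMI in 92.3% of T cells and 1.27% of Cd3-positive NK cells, and stood at 571 CPM (505 to 643) in T cells and 3.84 CPM (2.27 to 6.07) in Cd3-positive NK cells. Since Cd3e is part of the T cell rule, this is a description.

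Against Cd3-positive NK cells, 463 genes (6.12%) were higher in T cells and 670 (8.86%) lower, together 15% of 7562 tested with edgeR. Scaled to total UMIs, which shifted the median of all genes by -0.21 on the log2 scale, the counts were 356 and 1000. By DESeq2 they were 269 and 279, after thinning 299 and 378, and without tag 3 242 and 393. Naive genes were higher in 11 of 13 and lower in 0, with a median log2 fold change of 2.75 beside -0.05 over all genes tested. Receptor signalling genes were higher in 8 of 20 and lower in 2, and NK genes lower in 14 of 14.

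By the rule for named genes Dapl1, Themis, Cd8b1, Ifi27l2a, St6gal1 and Fam169b stood out on the higher side. Cd8b1, Ifi27l2a, St6gal1 and Fam169b had 359.6 ± 119.9, 314 ± 81.1, 220.0 ± 69.2 and 257 ± 139.9 CPM in T cells, against 4.11 ± 2.46, 9.93 ± 10.6, 2.55 ± 1.87 and 7.53 ± 4.42 CPM in Cd3-positive NK cells (SD, n = 3). Themis had a log2 fold change of 5.44 (SE 0.23, edgeR adjusted p = 1.4e-117), with the levels given above, and Bcl11b, at 27.1 ± 4.45 CPM in Cd3-positive NK cells, one of 3.94 (SE 0.23, edgeR adjusted p = 1.9e-63). Dapl1 was seen in 35 of 78 T cells and 3 of 629 Cd3-positive NK cells, and stood at 576, 215 and 463 CPM in T cells and 10.6, 0 and 0 CPM in Cd3-positive NK cells. Lef1 had a log2 fold change of 3.19 and Il7r one of 2.75 (edgeR adjusted p = 1.3e-69 and 4.0e-53). Cxcr6 stood at 125 ± 83.3 CPM in T cells and 2.00 ± 1.23 CPM in Cd3-positive NK cells (SD, n = 3), a log2 fold change of 6.01 (SE 0.55, edgeR adjusted p = 1.4e-25). On the lower side Klra4, Ccl4, Tyrobp, Klra8, Gzma and Klra7 had log2 fold changes between -5.99 for Ccl4 and -4.36 for Gzma. Trdc, the delta chain constant gene, was lower in T cells (log2 fold change -2.31, SE 0.63, edgeR adjusted p = 0.0026), a call lost by DESeq2 (-2.65) and after thinning (-1.98).

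Coreceptors split the T cells. Cd8a or Cd8b1 without Cd4 was seen in 36 cells (46.2%, 34.8 to 57.8%), Cd4 without Cd8a or Cd8b1 in 23 (29.5%, 19.7 to 40.9%) and neither in 19 (24.4%, 15.3 to 35.4%). No cell had UMIs of both, which allows up to 4.62% of cells with such UMIs (exact binomial). By tag, 13, 4 and 19 cells were Cd8, 4, 6 and 13 were Cd4, and 5, 6 and 8 were neither. Thinned to 3900 UMIs, 30 of 70 cells were Cd8, 17 Cd4 and 23 neither, a larger share of neither cells than at full depth. The median depth was 6603 UMIs in Cd8, 5709 in Cd4 and 4851 in neither cells. The Cd4 class reached 10 cells in tag 3 only, so no test was run between classes and the values below are a description.

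Cd8 cells carried Dapl1 most widely. Dapl1 stood at 666 CPM (568 to 777) in Cd8 cells, 215 CPM (145 to 306) in Cd4 cells and 239.7 CPM (150.2 to 363) in cells with neither. After thinning it was seen in 64.7% of 34 Cd8, 28.6% of 21 Cd4 and 33.3% of 15 neither cells. Tcf7 was lowest in the neither cells, at 174 CPM (99.6 to 283), against 374 CPM (301 to 459.5) in Cd8 and 315 CPM (229 to 422) in Cd4 cells. Il7r and Ccr7 did not follow this order. Il7r stood at 687 CPM (587 to 799) in Cd8, 979.7 CPM (822 to 1158) in Cd4 and 817 CPM (643 to 1024) in neither cells, and Ccr7 at 123 CPM (83.3 to 176), 164 CPM (104 to 247) and 98.1 CPM (44.8 to 186). Ly6c2, a surface gene of memory CD8 T cells and of monocytes, stood at 292 CPM (228 to 368) in Cd8 and 35.8 CPM (11.6 to 83.4) in Cd4 cells, and at 403 CPM (284 to 556) in neither cells, where 5 of 19 cells held a UMI. A single neither cell held 23 of the 37 Ly6c2 UMIs of its class, and without it the level was 161 CPM (88.1 to 270.4). Nkg7 was seen after thinning in 85.3% of Cd8, 42.9% of Cd4 and 60% of neither cells, against 19.9% of B cells.

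Cxcr6 and Id2 were seen at their lowest level in Cd8 cells. Cxcr6 stood at 49.4 CPM (25.5 to 86.2) in Cd8, 143 CPM (87.4 to 221) in Cd4 and 272 CPM (176 to 402) in neither cells. A single Cd4 cell, the deepest T cell with 15994 UMIs, held 12 of the 20 Cxcr6 UMIs of its class. Without the cell with most Cxcr6 UMIs in each class, the levels were 21.5 CPM (6.97 to 50.1) in Cd8, 64.6 CPM (27.9 to 127) in Cd4 and 207 CPM (122 to 327) in neither cells. Id2, a regulator of innate and effector lymphocytes, stood at 98.7 CPM (63.2 to 147), 486 CPM (378 to 616) and 654 CPM (499 to 842) in the same order. Zbtb16 was seen in 1 of 36 Cd8, 5 of 23 Cd4 and 5 of 19 neither cells, and Il4, the IL-4 gene, in 0, 4 and 5. Maf, which drives IL-4 in helper cells, was seen in 1, 6 and 8 cells. The Cd8 cell with Zbtb16 held 6 Zbtb16 UMIs but a single Cd8b1 UMI and no Cd8a UMI, so its class is uncertain. Ikzf2 stood at 28.8 CPM (11.6 to 59.3) in Cd8, 451 CPM (346 to 576) in Cd4 and 196.1 CPM (116 to 310.0) in neither cells, with a UMI in 5, 8 and 6 cells. In the Cd4 class 2 cells held 28 and 15 of its 63 UMIs, and without them the Cd4 level was 169 CPM (103 to 261). No cells were left out of the other classes in this step, so the order of Cd4 and neither cells stays unsettled. Other genes of the innate-like list did not follow this order: after thinning Klrd1 was seen in 55.9% of Cd8, 19.05% of Cd4 and 33.3% of neither cells, and Ltb, a lymphotoxin gene, in 94.1%, 81.0% and 93.3%. Of the gamma chain genes, Tcrg-C1 and Tcrg-C4 each had 6 UMIs in 3 neither cells and 0 in Cd8 and Cd4 cells. Others were not limited to the neither class. Trgv2 was seen in 1 Cd4 and 2 neither cells, and after thinning Tcrg-C2 in 1 of 21 Cd4 and 2 of 15 neither cells. The lower depth of the neither cells moves with these values, and its part in them was not tested.

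**Figure D4:**
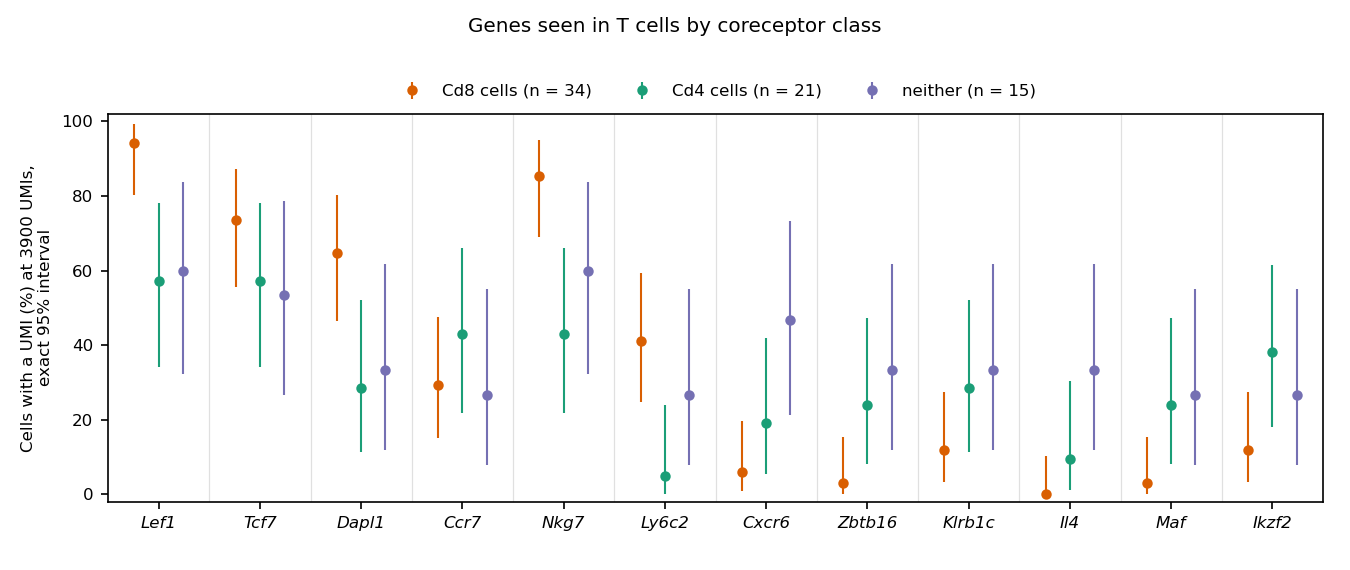
Share of T cells with a UMI of 12 genes by coreceptor class, after thinning each cell to 3900 UMIs, with exact 95% binomial intervals; 34 Cd8, 21 Cd4 and 15 neither cells were deep enough. Dapl1 is most often seen in Cd8 cells (64.7%), and Cxcr6 and Il4 in neither cells (46.7% and 33.3%), with wide intervals.

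The T cells were also split by Cxcr6, and Zbtb16, Il4 and Ikzf2 were seen in a larger share of the cells with it. This split was chosen after its values were seen and is given without a test. Cxcr6 had a UMI in 20 cells, 4 of tag 1, 5 of tag 2 and 11 of tag 3, of which 6 were Cd8, 5 Cd4 and 9 neither. Zbtb16 was seen in 8 of the 20 cells with Cxcr6 (40%) and 3 of the 58 without (5.17%), and Il4 in 8 (40%) and 1 (1.72%). Xcl1, a chemokine gene of NK and innate-like cells, was seen in 8 of the cells with and 4 of those without Cxcr6, and Ikzf2 in 11 and 8. Icos differed little, in 8 cells with (40%) and 22 without Cxcr6 (37.9%), and Klrb1c was seen in 8 (40%) and 13 (22.4%). The naive genes ran the other way, with Ccr7 in 4 cells with (20%) and 33 without Cxcr6 (56.9%), and Dapl1 in 5 and 30. After thinning, Zbtb16 was seen in 8 of 19 cells with and 3 of 51 without Cxcr6, and Ccr7 in 3 and 20. The median depth was 5375.5 UMIs with and 5827 without Cxcr6.

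No UMI of the channel that the series is about was seen in T cells. Kcnj8, the Kir6.1 gene on chromosome 6 (142564837 to 142571614 on GRCm38, minus strand), had 0 UMIs in the T cells of every tag, which allows a level of up to 7.77 CPM by its exact interval. It stood at 16.9, 8.48 and 12.3 CPM in Cd3-positive NK cells, 48.1 ± 4.62 CPM in NK cells (SD, n = 3) and 0 CPM in B cells. The level in T cells was at least 7.54-fold lower than in NK cells against a floor of 3 UMIs over all T cells (edgeR adjusted p = 3.0e-07). Kcnj11, Abcc8 and Abcc9, the genes of the other subunits, also had 0 UMIs in T cells. Of 5 tested potassium channel genes of T cells 1 was higher and 2 were lower than in NK cells, and the summed level of the list was 239, 585 and 533 CPM in T cells, against 894, 865 and 840.5 CPM in NK cells. Kcnq5, a voltage-gated channel gene, stood at 82.2, 429.7 and 400.5 CPM in T cells and 778, 741 and 729 CPM in NK cells (log2 fold change -1.19, SE 0.19, edgeR adjusted p = 5.4e-09). Kcnab2, which encodes an auxiliary channel subunit, was the other lower gene, at 23.1 ± 11.5 CPM in T cells and 82.5 ± 8.44 CPM in NK cells (SD, n = 3). Kcnn4, the calcium-activated potassium channel gene of activated T cells, stood at 135, 143 and 73.9 CPM in T cells and 12.6, 9.68 and 11.4 CPM in NK cells, the higher gene, without overlap and with a log2 fold change of 3.42 (SE 0.39, edgeR adjusted p = 1.2e-16). Kcna3, the voltage-gated channel gene known from human T cells, had 3 UMIs in T cells, at the floor.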

How the data were processed

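One droplet library of NK-selected spleen cells was used, and the other sample of the series was not analysed here. Per the file headers, the deposited values are raw UMI counts per gene and cell made by the authors with Cell Ranger 7.0.0, and 3 lipid tags were counted beside 32285 genes. Cell Ranger, Seurat and mm10 appear in the submitters' processing notes. No source used here gives the annotation or the treatment of intron reads.

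A barcode was kept with 500 to 6000 genes and no more than 10% of its UMIs from mitochondrial genes (15742 of 16384 barcodes). It was given to a tag when its count passed the cutoff of that tag alone, and these cutoffs are part of the rule for the cells, set in earlier work on the same tag counts. Cutoffs by Otsu's method, added after seeing the data, gave 78 T cells of 11695. That left 11692 cells, 3597, 4210 and 3885 by tag, with 18554783, 23060242 and 22404924 UMIs, and set aside 3540 barcodes over several cutoffs and 510 over none. No doublet caller was run beyond the tags.

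Counts were summed per tag and cell set, and sets were compared with edgeR 4.0.16 (quasi-likelihood test, TMM scaling, filterByExpr, tag as a block, Benjamini-Hochberg adjustment over all genes tested, threshold 0.05) in R 4.3.3. The block pairs the sets because cells with the same tag were processed under the same tag in the same library. The fit of T cells against NK cells was tested on simulated counts with known changes, and the fits against B cells and Cd3-positive NK cells were not. DESeq2 1.42.0, total-UMI scaling, no filter, no block, each tag left out, thinning to 3900 UMIs per cell, a bound of 12469.4 UMIs (the percentile 95 of analysed cells) and at least 2 Trac UMIs were tried as alternatives. Leaving out the T cell with most UMIs of a gene, in a class or tag, was added after seeing the data. Sums and shares were made with Python 3.11.15.

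Genes were named by the ratio of mean CPM, with 20 CPM added to each set, among called genes that moved alike in every tag and reached 50 CPM: 12 each way against NK cells, 8 against B cells and 6 against Cd3-positive NK cells. Genes of the fixed lists could also be named, and a few are not reported here. The members and the lists were chosen with earlier results of these data known.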

Additional observations from a re-analysis of the deposited data

Results flagged for a closer look

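Cells that met the gene rule for T cells also occurred among barcodes outside the analysed cells. There were 3 among the 3540 barcodes over several tag cutoffs and 1 among the 510 barcodes over none. They were not used in any comparison.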

How the results depend on the processing

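The comparisons rest on 16 to 40 T cells per tag, and tag 3 holds about as many as the other tags together, so genes near the floor of 6.32 CPM could not be compared. By DESeq2, 411 genes were lower in T cells than in NK cells, 238 were higher and 338 lower than in B cells, and 269 were higher and 279 lower than in Cd3-positive NK cells. With cells thinned to 3900 UMIs, which also leaves fewer genes to test, 377 were higher against NK cells, 276 higher and 368 lower against B cells, and 299 higher and 378 lower against Cd3-positive NK cells. Leaving out each tag gave 274 to 473 higher and 518 to 720 lower genes against NK cells, 344 to 635 and 432 to 658 against B cells, and 242 to 399 and 393 to 551 against Cd3-positive NK cells, the lowest each time without tag 3. Without the tag block the counts were 666 higher and 1021 lower against NK cells, 511 and 625 against B cells, and 522 and 713 against Cd3-positive NK cells, within 1.5 times of those with it. The share of calls that were higher in T cells against NK cells was 38.0% with TMM, 27.6% with total UMIs and 53.7% by DESeq2, and against Cd3-positive NK cells 40.9%, 26.3% and 49.1%. Where NK and B genes were not used in the rule, the T cell share of a tag was 1.19%. Leaving out each tag, it ran from 0.496 to 0.821%, the Cd8 share from 41.1 to 51.6%, the Cd4 share from 26.3 to 33.9% and the share with neither from 21.0 to 28.9%. For genes named in the text, 40 of the alternative values against NK cells, 4 against B cells and 7 against Cd3-positive NK cells lost their call, 5 and 4 against NK and B cells gained one, and 0 reversed a call. The planned fits of Cd8 against Cd4 T cells were not run, since the Cd4 class had too few cells per tag. The causes of these differences were not tested.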
